A study of Mus musculus with 5 samples.

Results

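Lung ILC2 sub-cluster 1 is a set of group 2 innate lymphoid cells (ILC2s) that the authors separated by single-cell RNA sequencing of mouse lung. It was described here by the gene lists deposited for it. A list headed by sub-cluster 1 against another sub-cluster gave the genes with higher expression in sub-cluster 1, and the reverse list gave the genes with lower expression. In all, 125 genes stood in at least 1 of these lists, of 191 genes listed anywhere in the lung table (65.4%) and 688 in the whole series. Of the 125, 12 were higher than in all other lung sub-clusters pooled (the list against all), 39 more were higher in at least 1 of the 5 comparisons with a single other sub-cluster (1 versus 1), and 78 were lower in at least 1 of them. Of these, 4 genes were higher in one comparison and lower in another, and 66 lung-listed genes were listed for sub-cluster 1 in neither direction.

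The lung cells came from wild-type male C57BL/6 mice aged 6 weeks and were sorted as lineage-negative cells with surface ST2, the IL-33 receptor, and CD25. Lung tissue was digested with collagenase for 60 min, and the cells of 10 mice were pooled into 1 library. The same mice gave the large intestine (LI) and small intestine (SI) libraries, and a separate pool of 10 mice gave the bone marrow (BM) and pancreas libraries. SI cells alone were sorted by low Thy1 and high KLRG1 in place of ST2 and CD25. LI and SI tissue was digested for 90 min and pancreas for 30 min, whereas BM was flushed from the bones. Both pools were of wild-type male C57BL/6 mice aged 6 weeks. With 1 library per tissue there was no replicate, and because only the symbols of listed genes are given, with no level, fold change, p-value or number of cells, neither the size of a difference nor its error can be given and no test was possible. The lists were made from the same cells that had been clustered, so a listing describes sub-cluster 1 and is not independent evidence for it.

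ILC2s are tissue-resident lymphocytes without rearranged antigen receptors that make type 2 cytokines when epithelial alarmins such as IL-33 reach them. Galectin-1, the product of Lgals1, is a lectin that binds β-galactoside sugars on cell surface glycoproteins and can act inside or outside the cell. S100 proteins are small EF-hand proteins that bind calcium and then engage partner proteins, among them annexins and components of the cytoskeleton.

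All 5 markers given for the label, Lgals1, S100a6, Crip1, Tnfsf8 and Cd3g, were in the list against all. That list named 12 genes (6.28% of the lung-listed genes), in the deposited order Lgals1, S100a6, Crip1, Cd3g, Vim, Tnfsf8, S100a11, S100a4, S100a10, Actn2, Capg and Ahnak. All 12 were also higher in at least 1 of the 1 versus 1 lists, and 0 of them were lower in any. No other lung sub-cluster listed any of the 12 against all, which follows in part from how such lists are made. On mm10 they lie on 9 chromosomes, and the 4 S100 genes are the members that share one.

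The S100 members form neighbouring pairs on chromosome 3. S100a4 (90603771 to 90606045), whose product binds non-muscle myosin, and S100a6 (90612882 to 90624181), encoding calcyclin, are 6.84 kb apart with S100a5 between them. S100a11 (93520488 to 93526287) and S100a10 (93555080 to 93564643), which encodes the partner of annexin A2, are 28.8 kb apart, and 2896 kb separate the pairs. Of 17 S100 genes in the annotation, 14 are on chromosome 3, and these 4 were the S100 genes listed anywhere in the series. The promoters of the S100 members are shown because these genes were listed together and form neighbouring pairs on chromosome 3. That of Cd3g, the member that belongs to another cell type's receptor, is shown because Cd3g was the 1 member taken from the T cell marker list. RefSeq windows on build GRCm38.p6 were found for 10 of the 12 members (not for Lgals1 and S100a10). Each stretch below is the 250 bases before the RefSeq start site on the gene's strand, with 1 motif in capitals. The last few bases of the S100a6 and S100a11 windows lie inside the gene as GENCODE draws it.
S100a4 (chr3:90603520-90603769, plus strand, TATA box in capitals): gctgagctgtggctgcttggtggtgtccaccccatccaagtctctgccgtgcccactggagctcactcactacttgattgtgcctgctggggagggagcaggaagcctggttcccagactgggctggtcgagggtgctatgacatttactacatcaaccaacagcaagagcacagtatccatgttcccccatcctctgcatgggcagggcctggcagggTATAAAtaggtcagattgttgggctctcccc
S100a6 (chr3:90612644-90612893, plus strand, RUNX motif in capitals): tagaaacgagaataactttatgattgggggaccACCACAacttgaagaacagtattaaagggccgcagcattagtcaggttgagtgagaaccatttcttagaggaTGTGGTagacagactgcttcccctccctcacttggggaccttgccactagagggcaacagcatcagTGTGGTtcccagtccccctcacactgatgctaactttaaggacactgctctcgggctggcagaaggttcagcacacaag
S100a11 (chr3:93520246-93520495, plus strand, AP-1 motif in capitals): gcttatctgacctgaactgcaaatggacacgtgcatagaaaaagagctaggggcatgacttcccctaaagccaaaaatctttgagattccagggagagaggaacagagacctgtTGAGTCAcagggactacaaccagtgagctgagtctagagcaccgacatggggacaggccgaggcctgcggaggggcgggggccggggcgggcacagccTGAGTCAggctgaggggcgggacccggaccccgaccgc
Cd3g (chr9:44980432-44980681, minus strand, GATA motif in capitals): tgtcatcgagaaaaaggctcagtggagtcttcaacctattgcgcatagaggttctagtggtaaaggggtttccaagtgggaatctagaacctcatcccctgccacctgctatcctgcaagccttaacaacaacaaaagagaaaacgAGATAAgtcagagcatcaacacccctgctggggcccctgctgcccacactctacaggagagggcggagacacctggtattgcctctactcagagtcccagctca

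Motifs were searched as letters on both strands, and a match is a description of the sequence. The TATA box, searched as the letters TATAAA, was held by 2 of the 10 members, S100a4 and Vim, beside 12.4% of 32851 promoter windows of this length, and began 31 bases before the start of S100a4. The RUNX letters TGTGGT had 3 matches before S100a6 and were also found before Actn2, beside 14% of all windows. The AP-1 letters TGANTCA had 2 matches before S100a11, 136 and 38 bases from the start, and were held by none of the other 9 matched members, beside 6.75% of windows. For GATA factors, the letters searched were AGATAA, found before Cd3g (104 bases from the start), Crip1 and S100a11, beside 9.99% of windows. The GC box GGGCGG was found before 5 members, Actn2, Ahnak, Cd3g, Crip1 and S100a11, beside 32.7% of windows. None of the 5 motifs was held by all 3 of the S100 windows.

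The 5 comparisons with single sub-clusters gave lists of very different length. Sub-cluster 1 had 12 genes higher and 4 lower against sub-cluster 0, 21 higher and 53 lower against sub-cluster 2, 18 and 18 against sub-cluster 3, 37 higher and 10 lower against sub-cluster 4, and 11 higher and 27 lower against sub-cluster 5. As shares of the 191 lung-listed genes, the higher lists held 6.28%, 11%, 9.42%, 19.4% and 5.76% in that order of opponents, and the lower lists 2.09%, 27.7%, 9.42%, 5.24% and 14.1%. Over both directions, the pair of sub-clusters 1 and 0 had 16 listed genes, the 4th fewest of the 15 pairs of lung sub-clusters, and the pair 1 and 2 had 74, the 12th fewest. The extremes among lung pairs were 8 genes between sub-clusters 0 and 3 and 112 between 2 and 4. The number of cells in each sub-cluster is unknown here and its part in these lengths was not tested.

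**Figure D1:**
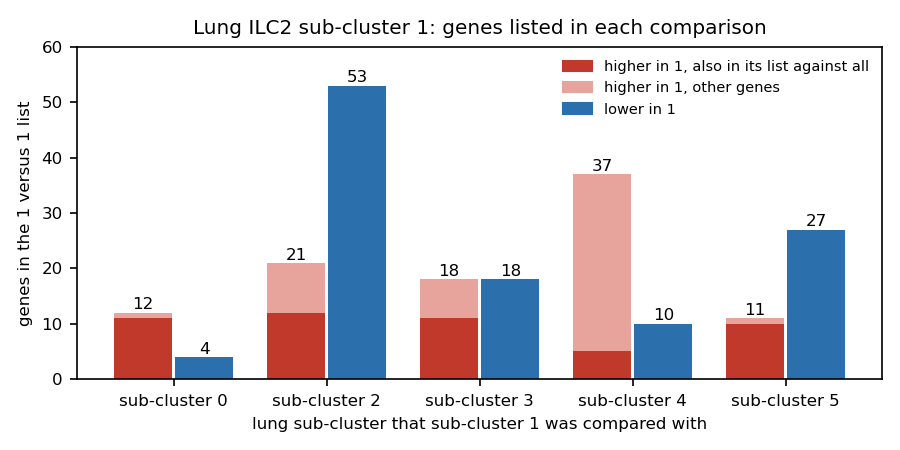
Number of genes listed as higher (red, left bar) and lower (blue, right bar) in lung sub-cluster 1 against each other lung sub-cluster on the horizontal axis, with genes of the list against all in the darker red. The dark part holds 10 to 12 genes in 4 comparisons and 5 against sub-cluster 4, where 37 genes in all were higher.

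Lgals1 (chromosome 15, 78926725 to 78930465) was the first gene in the list against all and in the lists against sub-clusters 0, 2 and 3, was second against sub-cluster 5, and was 16th against sub-cluster 4. What the deposited order means is not stated in the sources used. Along with Lgals1, 3 other genes were higher in all 5 comparisons: Crip1 (chromosome 12, 113146316 to 113153879), encoding a small cysteine-rich LIM-domain protein, Vim (chromosome 2, 13573927 to 13582826), encoding the intermediate filament protein vimentin, and S100a11. These 4 genes were 33.3% of the list against all and did not depend on the opponent.

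A further 6 genes were higher against sub-clusters 0, 2, 3 and 5 and were not listed in either direction against sub-cluster 4. They were S100a6, S100a4, S100a10, Cd3g (chromosome 9, 44969572 to 44980431), Capg (chromosome 6, 72544391 to 72562983), which encodes an actin filament capping protein of the gelsolin family, and Actn2 (chromosome 13, 12269426 to 12340760), which encodes the actin crosslinker α-actinin 2 best known from muscle. Of the 4 S100 genes, S100a11 alone was thus listed against sub-cluster 4. S100a6 was also listed as higher in sub-cluster 4 than in sub-clusters 2 and 3, so its higher listing was not limited to sub-cluster 1.

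The remaining members of the list against all had narrower listings. Tnfsf8 (chromosome 4, 63831308 to 63861347), encoding the CD30 ligand, was higher against sub-clusters 0 and 2 and not listed against 3, 4 or 5. Ahnak (chromosome 19, 8989284 to 9076914), encoding a very large scaffold protein of the membrane skeleton, was higher against sub-clusters 2, 3 and 4 and not listed against 0 or 5. Tnfsf8 was the member with the fewest 1 versus 1 listings although it stood 6th in the list against all.

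**Figure D2:**
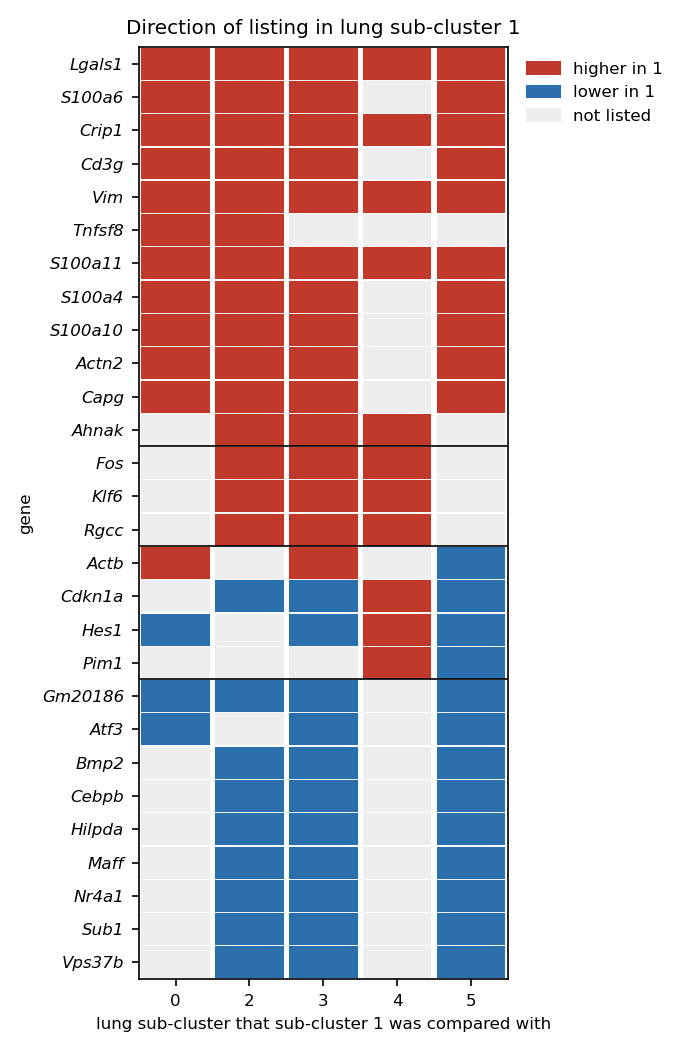
Listing of 28 genes (vertical axis) in lung sub-cluster 1 against each other lung sub-cluster (horizontal axis), red for higher in sub-cluster 1, blue for lower and grey for not listed. From top to bottom, the blocks are the 12 genes of the list against all, 3 other genes higher in 3 comparisons, the 4 genes listed in both directions and 9 genes lower in at least 3 comparisons. The column for sub-cluster 4 holds no blue field because the 10 genes lower against it were lower in no other comparison and are not shown.

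Beyond the list against all, 3 genes were higher in 3 comparisons, all of them against sub-clusters 2, 3 and 4: Fos, an AP-1 subunit, Klf6, a Krüppel-like transcription factor, and Rgcc, a regulator of the cell cycle. In total 31 genes were higher in 1 comparison, 6 in 2, 4 in 3, 6 in 4 and 4 in 5. Most of the genes in a single comparison came from the one with sub-cluster 4, which alone listed 26 of them.

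Against sub-cluster 0, 11 of the 12 higher genes were members of the list against all, and the other was Actb, encoding β-actin. The 4 lower genes were Gm20186, a long intergenic non-coding RNA, Hes1, a Notch-induced repressor, Klf4, a Krüppel-like factor, and Atf3, a stress-induced bZIP factor. Sub-cluster 0's own list against all held Jun, Fos, Klf6 and Klf2, and 0 of these 4 were listed in either direction between sub-clusters 1 and 0. None of the 11 members was listed against sub-cluster 0 for any other lung sub-cluster, whereas Actb was also listed for sub-clusters 4 and 5. These comparisons share the cells of sub-cluster 0 and are set side by side only. The members were chosen as higher in sub-cluster 1 than in the other lung cells pooled, so their absence elsewhere follows in part from that choice.

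Against sub-cluster 2, all 12 members were higher, together with Jun, Fos and Klf6, the tissue-retention receptor gene Cd69, Cd52, which encodes a small glycosylated surface peptide, Rgcc, and the non-coding RNA Neat1, a scaffold of nuclear paraspeckles. Rgcc, Neat1, Cd52 and the unnamed ENSMUSG00000095041 were listed against sub-cluster 2 for sub-cluster 1 alone, as were 11 of the 12 members. S100a6 was listed for sub-cluster 4 as well. For the members, being listed for sub-cluster 1 alone again follows in part from how they were chosen. The 53 lower genes included type 2 effector and metabolic genes: Areg, encoding the growth factor amphiregulin, Calca, encoding the neuropeptide CGRP, Hilpda, a lipid droplet gene, and Odc1, the first enzyme of polyamine synthesis. They also included 4 genes of the ILC2 identity list, Rora, encoding a nuclear receptor on which ILC2 development depends, the costimulatory receptor gene Icos, the receptor partner gene Ramp3 and Hs3st1, a heparan sulfate sulfotransferase. Further lower genes encode NF-κB subunits (Rel and Nfkb1), bZIP factors (Crem, Fosl2 and Maff), Krüppel-like factors (Klf4 and Klf5), the phosphatases Dusp5 and Dusp10, the proton-sensing receptor Gpr65 and the urokinase receptor (Plaur). Of the 29 genes that sub-cluster 2 listed against all, 27 were lower in sub-cluster 1, and Dgat1 and Fam46a were not listed in this pair under those names; Fam46a is an older name of Tent5a, which was listed as lower. Of the 53, 33 were lower in this comparison and no other.

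Against sub-cluster 3, 11 of the 18 higher genes were members, Tnfsf8 being absent. The other genes were Fos, Klf6, Rgcc, Actb, the non-coding Gm26802, Anxa5, encoding the phospholipid-binding annexin A5, and Nebl, which encodes the actin-binding protein nebulette. Anxa5, Nebl and Rgcc were listed against sub-cluster 3 for sub-cluster 1 alone. The 18 lower genes began with Hes1, Gm20186 and Cdkn1a, encoding the cell cycle inhibitor p21, and held both genes of sub-cluster 3's own list against all, Hes1 and Cdkn1a. They also held the chemokine receptor gene Ccr9 and the syntaxin-binding gene Stxbp6, which were lower in sub-cluster 1 in no other comparison.

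Sub-cluster 4 gave a different picture. Only 5 of the 37 higher genes were members (Lgals1, Crip1, Ahnak, Vim and S100a11), and 17 were on the immediate early list. These began with Nfkbia, an inhibitor of NF-κB, Zfp36, an mRNA decay factor, and Dusp1, a MAP kinase phosphatase, which were the first 3 genes of the list, and went on with Cd69, Rgs1, Fos, Rgs2, Hes1, Klf6, Ier2, Nr4a2, Nfkbid, Ier5, Jun, Junb, Cdkn1a and Btg1. The list also held Csf2, encoding GM-CSF, the chemokine gene Cxcl2 and Bhlhe40, a transcription factor gene on the type 2 effector list, together with the proprotein convertase gene Furin and Smad7, an inhibitor of TGF-β signalling. All 32 higher genes that were not members were listed against sub-cluster 4 for at least 1 other lung sub-cluster too. Of the 37, 20 were listed against it for all 5 lung sub-clusters compared with it. The 5 members were listed against it for sub-cluster 1 alone, which follows in part from their choice as higher in sub-cluster 1. The 10 lower genes were Zfas1, a non-coding host of small nucleolar RNAs, Milr1, encoding an inhibitory immunoglobulin-like receptor, the TNF receptor family gene Cd27, Ppm1n, Gm3336, Ttc21a, Snx21, Gm26545, the surface antigen gene Ly6a and Lztfl1, and 0 of these were lower in any other comparison. Of the 9 genes in sub-cluster 4's list against all, 6 were lower in sub-cluster 1; of the other 3, Gm26802 and Txnip were not listed as lower, and ENSMUSG00000095026 is annotated as Gm3336, which was listed as lower under that name.

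Against sub-cluster 5, 10 of the 11 higher genes were members, and the other was the zinc finger repressor gene Zeb2. The 27 lower genes began with Spry2, which restrains growth factor receptor signalling, Kdm6b, a histone H3 lysine demethylase, and Hes1. They held 5 genes of the chromatin and Notch list, namely Kdm6b, Hes1, the receptor gene Notch2, the histone methyltransferase gene Kmt2d and the coactivator gene Ncoa3. Of the 15 genes that sub-cluster 5 listed against all, 13 were lower in sub-cluster 1, and Atxn1 and Cbx3 were not listed in this pair. Among the 27, 11 were lower in this comparison and no other.

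No gene was lower in sub-cluster 1 than in every other lung sub-cluster. Of the 78 (40.8% of the lung-listed genes, against 26.7% for the 51 that were higher in any list), 56 were lower in 1 comparison, 11 in 2, 10 in 3 and 1 in 4, and 0 were lower in all 5. Gm20186 (chromosome 6, 18845910 to 18848207) was lower against sub-clusters 0, 2, 3 and 5. Atf3 and Hes1 were lower against 0, 3 and 5. The other 8 genes with 3 listings were all lower against sub-clusters 2, 3 and 5: Bmp2, a TGF-β superfamily ligand, Cdkn1a, Cebpb, a bZIP factor of inflammation, Hilpda, Maff, a small Maf factor, Nr4a1, a nuclear receptor induced by activation, Sub1, a transcriptional coactivator, and Vps37b, an ESCRT subunit.

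For 4 genes the direction depended on the opponent. Actb was higher against sub-clusters 0 and 3 and lower against 5. Hes1 was higher against sub-cluster 4 and lower against 0, 3 and 5. Cdkn1a was higher against 4 and lower against 2, 3 and 5, and Pim1, a survival kinase gene, was higher against 4 and lower against 5. None of the 4 was in the list against all.

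The prepared gene lists described which kinds of genes were named. All 4 S100 genes and the 1 galectin gene listed in lung were in the list against all, beside 6.28% of all lung-listed genes. A gene could count as lung-listed through the lists of sub-cluster 1 itself, so such shares were partly fixed in advance. Lgals1, S100a4, S100a10 and S100a11 were higher in no other lung sub-cluster, and the full prepared lists hold 17 S100 and 8 galectin genes. Of 42 cytoskeleton and nuclear lamina genes, 6 were lung-listed. Of these, 4 were in the list against all (Vim, Actn2, Capg and Ahnak). Actb was higher in 2 comparisons, and Actg1, another actin gene, was listed in neither direction. Of 3 LIM-protein genes, Crip1 was higher and Csrp1 and Lmo4 were lower. Of the 6 lung-listed cytoskeleton genes, 4, 4, 5, 2 and 3 were higher against sub-clusters 0, 2, 3, 4 and 5, and Actb was the 1 that was lower, against sub-cluster 5. Over all lung-listed genes, these higher lists held 6.28%, 11%, 9.42%, 19.4% and 5.76%. The 2 against sub-cluster 4, Ahnak and Vim, are members of the list against all. Members were chosen as higher in sub-cluster 1, so these counts were partly fixed in advance.

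Immediate early genes are switched on soon after a cell is stimulated, without new protein synthesis, and they were listed on both sides. Of 31 lung-listed members, 17 were higher and 10 lower in at least 1 comparison, with Hes1 and Cdkn1a in both counts, and 0 were in the list against all. Over all lung-listed genes, 26.7% were higher and 40.8% lower in any list, and 19.4% were higher against sub-cluster 4. Against sub-clusters 0, 2, 3, 4 and 5 the numbers higher were 0, 4, 2, 17 and 0 and the numbers lower 3, 8, 6, 0 and 5. The lung tissue was digested for 60 min before the sort, and the part of digestion in these listings was not tested.

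Genes of ILC2 identity and type 2 function were listed mainly in the comparison with sub-cluster 2. All 4 lung-listed ILC2 identity genes (Rora, Icos, Ramp3 and Hs3st1) were lower and 0 were higher, beside 40.8% of lung-listed genes that were lower in any list. All 4 were lower against sub-cluster 2, and Hs3st1 against sub-cluster 3 as well. They are also in sub-cluster 2's own list against all, and other lung sub-clusters had several of them lower in some comparison, Icos, Ramp3 and Hs3st1 in sub-cluster 0 and Rora, Icos and Ramp3 in sub-cluster 4. Of 8 type 2 effector genes, 4 were lower (Areg, Calca, Hilpda and Odc1), 2 were higher against sub-cluster 4 (Bhlhe40 and Csf2), and Il5 and Dgat1 were listed in neither direction, counts near the 40.8% lower and 26.7% higher over all lung-listed genes. Of 6 chromatin and Notch genes, 5 were lower in at least 1 comparison, beside 40.8% of lung-listed genes. All 5 are in sub-cluster 5's own list against all and were also lower in some comparison in lung sub-clusters 0, 2 and 4. Sub-cluster 3 had them lower too, apart from Hes1, so this was not particular to sub-cluster 1. No member of the prepared cell cycle, MHC class II and glycolysis lists was in a lung list; Cdkn1a and Rgcc, named above, are not on that cell cycle list. Some genes lay outside every prepared list, 17 of the 51 higher and 48 of the 78 lower.

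**Figure D3:**
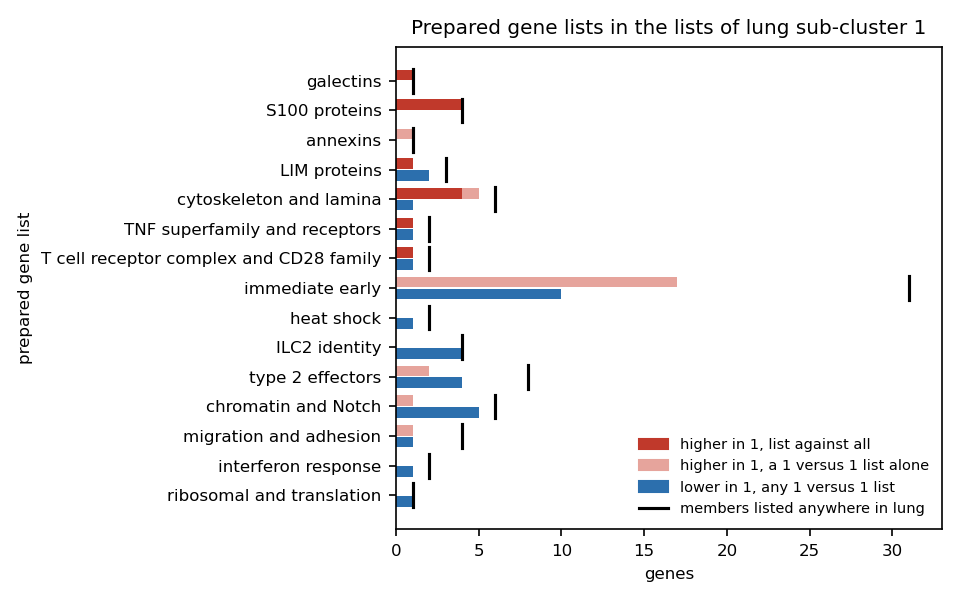
Genes of each prepared list with at least 1 lung-listed member (vertical axis) counted in the lists of lung sub-cluster 1 (horizontal axis, number of genes): dark red for the list against all, light red for 1 versus 1 lists alone, blue for lower in any 1 versus 1 list, with a black line at the number listed anywhere in lung. All 4 lung-listed S100 genes were higher. All 4 lung-listed ILC2 identity genes were lower against sub-cluster 2, Hs3st1 also against sub-cluster 3, and none against sub-clusters 0, 4 and 5. Immediate early genes had 17 higher and 10 lower. Over all lung-listed genes, 26.7% were higher and 40.8% lower in any 1 versus 1 list.

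Cd3g encodes the γ chain of CD3, the signalling part of the T cell receptor, and the sort excluded cells with surface CD3. Of 13 T cell markers, Cd3g was the 1 listed in any lung list. Cd3d, whose start lies 1.35 kb from that of Cd3g, Cd3e, Cd247, the receptor constant genes Trac, Trbc1 and Trbc2, and Cd4 and Cd8a were among the 12 that were not, and 0 of 5 γδ T cell markers were listed. The lists do not give levels, so a gene that is not listed may be expressed alike in all sub-clusters. The authors removed clusters with markers of T cells and other lineages. The part of T cells in the listing of Cd3g was not tested. No marker of NK cells or ILC1s, ILC3s, B cells, myeloid cells, mast cells and basophils, endothelium, epithelium, stroma or erythroid cells was in a lung list. Of 12 ILC2 markers, 4 were listed in lung, of which Rora, Icos and Areg were lower in sub-cluster 1 than in sub-cluster 2 and Il5 was in none of its lists. No ILC2 marker was on the higher side of sub-cluster 1. Over all lung-listed genes, 26.7% were higher and 40.8% lower in any list. Rora, Icos and Areg are in sub-cluster 2's own list against all. They were also lower in some comparison in lung sub-cluster 4, and Icos and Areg in sub-cluster 0, so this was not particular to sub-cluster 1. The cells of sub-cluster 1 carry the name ILC2 by the sort. The paper reports that the great majority of cells sorted this way were ILC2s by CD127 and high GATA3. A marker that all ILC2 sub-clusters express alike would not be listed.

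The members were then looked up in the other 4 tissues, to see which sub-clusters there carried them. Of 30 sub-clusters outside lung, 8 listed at least 1 of the 12 against all and 22 listed none. Among the 22, BM 0, LI 4, pancreas 2 and pancreas 3 had empty lists against all and could share no gene. BM 1, BM 2 and SI 5 listed 1 gene each. Pancreas 5, from the other pool of mice, shared 10 (83.3% of the 12 and 50.0% of its own 20), LI 6 shared 6 (50.0% and 12% of its 50), pancreas 1 shared 5 (41.7% and 38.5% of 13), BM 3 shared 4 (33.3% and 50.0% of 8), BM 5 shared 4 (33.3% and 26.7% of 15) and SI 4 shared 4 (33.3% and 16.7% of 24). LI 3 shared 2 genes and LI 2 shared 1.

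The lists against all of lung 1 and pancreas 5 also differed, with 2 genes in that of lung 1 alone and 10 in that of pancreas 5 alone. Vim and Ahnak were in the list against all for lung 1 and not for pancreas 5, which had Vim higher in 4 and Ahnak in 2 of its 6 comparisons. Another 10 genes were listed by pancreas 5 and not by lung 1: Anxa2, encoding the partner of S100a10, Lgals3, encoding galectin-3, Fgl2, Ccl5, Pxdc1, Grap, Uhrf2, Ifngr1, Cd74 and Csf2. Of these, Csf2 was higher in lung 1 against lung sub-cluster 4. Capg stood 11th in the list of lung 1, with 4 of 5 comparisons, and first in that of pancreas 5, with 6 of 6. Tnfsf8 was higher in 2 of 5 comparisons in lung 1 and in 5 of 6 in pancreas 5. The comparisons were made within each tissue, and the levels in lung and pancreas cannot be set against each other from these lists.

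The genes lower in lung 1 overlapped with those lower in pancreas 5 as well: 30 genes, which were 38.5% of the 78 and 42.9% of the 70 lower in pancreas 5. Over all lung-listed genes, 40.8% were lower in lung 1 in any list. The shared genes included Areg, Calca, Hilpda, Hs3st1, Icos, Kdm6b, Kmt2d, Notch2, Spry2, Nr4a1 and Gm20186. Calca, Hilpda and Hs3st1 were also lower in pancreas 1 and 2, Areg and Nr4a1 in pancreas 2, and Gm20186 in pancreas 1. Kdm6b, Notch2 and Spry2 were also lower in pancreas 0, 1, 2, 3 and 6, and Kmt2d in pancreas 0, 1, 2 and 3. Kdm6b, Kmt2d and Notch2 were lower in every BM sub-cluster but BM 4, so their sharing was not particular to this pair. LI 6 shared 39 lower genes (50.0% of the 78 and 19.2% of its 203), and 20 genes were lower in all of lung 1, pancreas 5 and LI 6, among them Hes1, Hilpda, Hs3st1, Icos, Kdm6b, Spry2 and Vps37b. These named genes were all lower in lung 0 too. All but Icos were lower in pancreas 1, all but Spry2 in LI 3 and all but Hes1 in SI 1. A long lower list shares more genes by its length, and LI 3, with 348, shared 52 (66.7% of the 78 and 14.9% of its own). Other pancreas sub-clusters shared lower genes too, 24 with pancreas 2 (of its 83) and 21 with pancreas 1 (of its 62). Within lung, where the comparisons share cells, 52 of the 78 were also lower in sub-cluster 0 and 55 in sub-cluster 4, so most of these genes were not lower in sub-cluster 1 alone.

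The 12 members did not travel as a block. Lgals1 was in 7 other lists against all in 4 tissues, S100a6 in 6 in 3 tissues, and Crip1 and Vim in 4 each. Cd3g was in 2 (LI 6 and pancreas 5) and in no BM or SI list of either kind, S100a10 and Capg were in that of pancreas 5 alone, and Ahnak was in none. BM 3 and BM 5 shared Lgals1, S100a6 and S100a4 with lung 1 and had 0 listings of Cd3g, Tnfsf8 and Actn2. LI 6 and SI 4 shared Actn2, with Lgals1 higher in all of their comparisons, and LI 6 listed Tnfsf8 in 7 of 7. LI 6 had S100a4 lower in 6 of 7 comparisons and S100a6 lower in 2, the reverse of their direction in lung 1. Lung 1 and pancreas 5 were the sub-clusters with S100a4, Tnfsf8 and Cd3g together in the list against all.

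**Figure D4:**
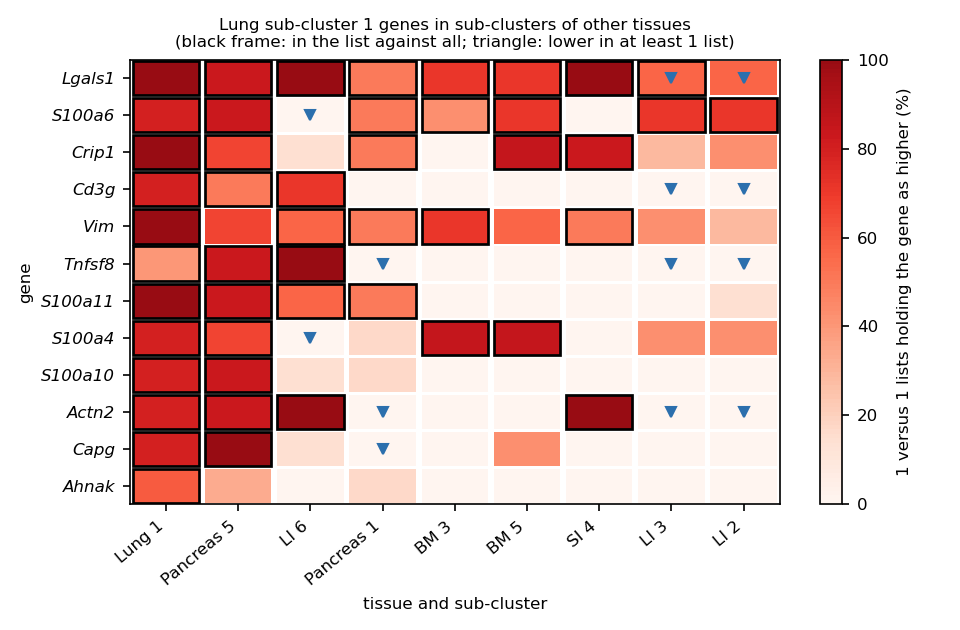
Share of 1 versus 1 comparisons (color, percent) in which each of the 12 genes (vertical axis) was higher in lung sub-cluster 1 (left column) and in the 8 sub-clusters of other tissues that share at least 1 gene with its list against all (horizontal axis). Black frames mark genes of a list against all and triangles genes lower in at least 1 comparison. Lung 1 and pancreas 5 have 12 and 10 framed genes, and LI 6 has triangles at S100a4 and S100a6.

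Pancreas 5, SI 4, BM 3 and BM 5 were the 4 sub-clusters outside lung with 0 of the 12 members lower in any comparison, and the other 26 had at least 1. Pancreas 2 had all 12 lower in at least 1 comparison. Each pancreas sub-cluster was compared with pancreas 5, so these lower listings in pancreas are partly the reverse of its own higher lists.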

How the data were processed

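ILC2s of each tissue were captured as 1 droplet single-cell 3′ library, sequenced more than once, with the reads pooled. Per the study's methods and the submitters' processing notes, reads were aligned to mm10 and counted with Cell Ranger, low-quality cells were removed with scater, and cells were clustered within a tissue with Seurat (version 2 in the notes) in R 3.6.1. How doublets were treated is not stated in the sources used. The deposited tables hold gene symbols of marker lists, without a unit; what threshold the authors set for a listing is not stated in the sources used, and the depth is unknown.

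All 262 list columns were read, 36 of them from lung and 11 of these with sub-cluster 1. A column holding NA was an empty list. Counting was done in Python 3.11.15. The counting rule was checked on a small made-up example, coded apart from the counting that gave the results. Symbols were matched to GENCODE release M21, where 123 of the 125 genes (98.4%) matched 1 gene. Genes were named if they were in the list against all, in at least 3 of the 1 versus 1 lists of 1 direction, in both directions, in a prepared list, or among the first 3 genes of a list; a few more were named after their listings were seen. The members, gene lists and naming rule were chosen with earlier results of these data known. Alternatives took other numbers of 1 versus 1 lists and current gene names.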

Additional observations from a re-analysis of the deposited data

How the results depend on the processing

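No test was run, so the alternatives change counts only. Defined by at least 1 of the 1 versus 1 lists, sub-cluster 1 had 51 genes in place of 12, and defined by every one it had 4; at least 3 lists gave 14. The 78 lower genes became 22, 11 and 0 with at least 2, at least 3 and every list. With genes in every 1 versus 1 list of both sub-clusters, the number shared was 0 with pancreas 5, pancreas 1, BM 3 and BM 5, and 1 with LI 6 and SI 4; with at least 3 lists, pancreas 1 shared 8 in place of 5. These changes follow from the stricter or looser definition. Current gene names changed none of the 19 counts they were applied to. No paired analysis was possible because each tissue has 1 library. Without levels, cell numbers or depth, a gene that is not listed cannot be called unchanged.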

Other observations

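A few entries in the lists of lung sub-cluster 1 have no firm annotation. ENSMUSG00000095041, higher against sub-cluster 2, matched no gene of the annotation, and Ptp4a1, lower against sub-cluster 2, matched 2. Gm20186, the gene lower in the most comparisons (4 of 5), is an intergenic non-coding RNA.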
